A study of Mus musculus with 16 samples.

Results

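The genes described here are the mouse matrix metalloproteinases (Mmp), the ADAMTS proteases (Adamts), the tissue inhibitors of metalloproteinases (Timp) and the lysyl oxidases (Lox and Loxl). They were chosen by name, as the protein-coding genes whose symbol is Mmp, Timp, Adamts or Loxl with a number, or Lox. The rule gave 50 of the 53379 genes in the table, with 22 Mmp, 19 Adamts, 4 Timp and 5 lysyl oxidase genes, and 1 further name that fits the pattern, Mmp1a, was left out because the file gives it another gene type. Livers of C57BL/6J mice were compared at postnatal day 1 (P1) and at 1, 2 and 4 weeks of age (W1, W2 and W4). At each age there were 2 libraries from Control mice, labelled wild-type, and 2 from Mettl3 cKO mice, which carried Mettl3 flox/flox alleles and Cre under the albumin enhancer and promoter (Alb-Cre). Mettl3 is the enzyme that places N6-methyladenosine marks on mRNA. The 2 libraries of a group were from separate mice by the study's methods, and Control and cKO mice were littermates. The cross whose offspring the paper counted had a Mettl3 flox/flox parent. No source used here states the Mettl3 alleles of the Control mice that were sequenced. Alb-Cre acts in hepatocytes and in bile duct cells that share their origin, so other liver cells keep Mettl3.

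Matrix metalloproteinases are zinc enzymes that are made as inactive precursors and cut collagens, laminins and other matrix proteins once activated, and Timp proteins bind their active sites and block them. Adamts enzymes are secreted relatives that cut proteoglycans, procollagen ends or von Willebrand factor. Lysyl oxidases are copper enzymes that oxidise lysines of collagen and elastin so that the fibres become cross-linked. In injured liver these genes are known mainly from stellate cells, portal fibroblasts, macrophages and bile duct cells, which are the minority of cells beside the hepatocytes.

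Values are FPKM (fragments scaled by exon length and by sequencing depth) for each gene and library, so they are per length and can be set side by side between genes. The estimated depth ran from 10.8 to 15.5 M reads, so that a gene with 2 kb of exon gained 0.0323 to 0.0464 FPKM with each read. Mettl3 itself stood at 4.94 to 8.12 FPKM in the Control libraries and at 6.72 to 11.3 FPKM in those labelled cKO. Its values count all exons, only exons 2 to 4 lie between the loxP sites, and the libraries labelled cKO did not have less of it, so these values do not check the labels. Xist and Y-linked genes gave male livers throughout W2 and W4, male Control and female cKO livers at W1, and 1 male Control beside 3 female livers at P1. Sex and genotype therefore cannot be told apart at W1. Only P1 Control held both sexes, so a term for sex in the fit rests on its 1 male and 1 female liver. The share of summed FPKM from mitochondrial transcripts was 58.1% and 59.0% in W2 Control, 25.2% and 43.8% in W2 cKO, and 14.8 to 34.7% at the other ages. The tissue label was checked by 7 hepatocyte markers, which summed to 28380 to 90530 FPKM in every library, with the lowest sums in the 2 of W4 cKO.

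Of the 50 genes, 28 reached at least 1 FPKM in at least 2 libraries and were tested. The other 22 comprised 4 genes that reached 1 FPKM in at most 1 library (Adamts4, Adamts12, Loxl4 and Mmp7), 16 genes under 1 FPKM throughout, and 2 genes listed at 0 in all 16 libraries (Mmp1b and Mmp20). A gene was called changed at a Benjamini-Hochberg adjusted p under 0.05 over the 14913 genes tested, with limma on log2(FPKM + 1). The 14913 were not limited to protein-coding genes. Fold changes are on this scale, which understates the change of low genes, and SE is the standard error of the fitted difference. A gene high in a single group could pass the filter through that group alone. Mmp12 and Mmp24 did so, with 1 FPKM or more only in the 2 W4 cKO libraries. Counts over the 28 are therefore descriptions of the genes tested.

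The W4 livers labelled cKO stood apart. At W4, 20 of the 28 tested genes were higher (71.4%) and 1 was lower, where 46.9% of all genes tested were called higher and 12.4% lower. The median log2 fold change of the 28 was 1.32, against 0.44 over all genes. At W2, 4 were higher and 0 lower, at W1 1 was higher and 1 lower, and at P1 0 were called. Of all genes tested, 24.6% were higher and 4.49% lower at W2. These shares were 3.24% and 1.59% at W1 and 0.0738% and 0.0939% at P1. The genes called at W4 included the inhibitors Timp1, Timp2 and Timp3, the gelatinase Mmp2, the membrane-type proteases Mmp14 and Mmp15, macrophage elastase Mmp12, the aggrecan-cutting Adamts1, and Lox, Loxl1 and Loxl2. In bulk liver, more cells of a type and more RNA per cell cannot be told apart.

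**Figure D1:**
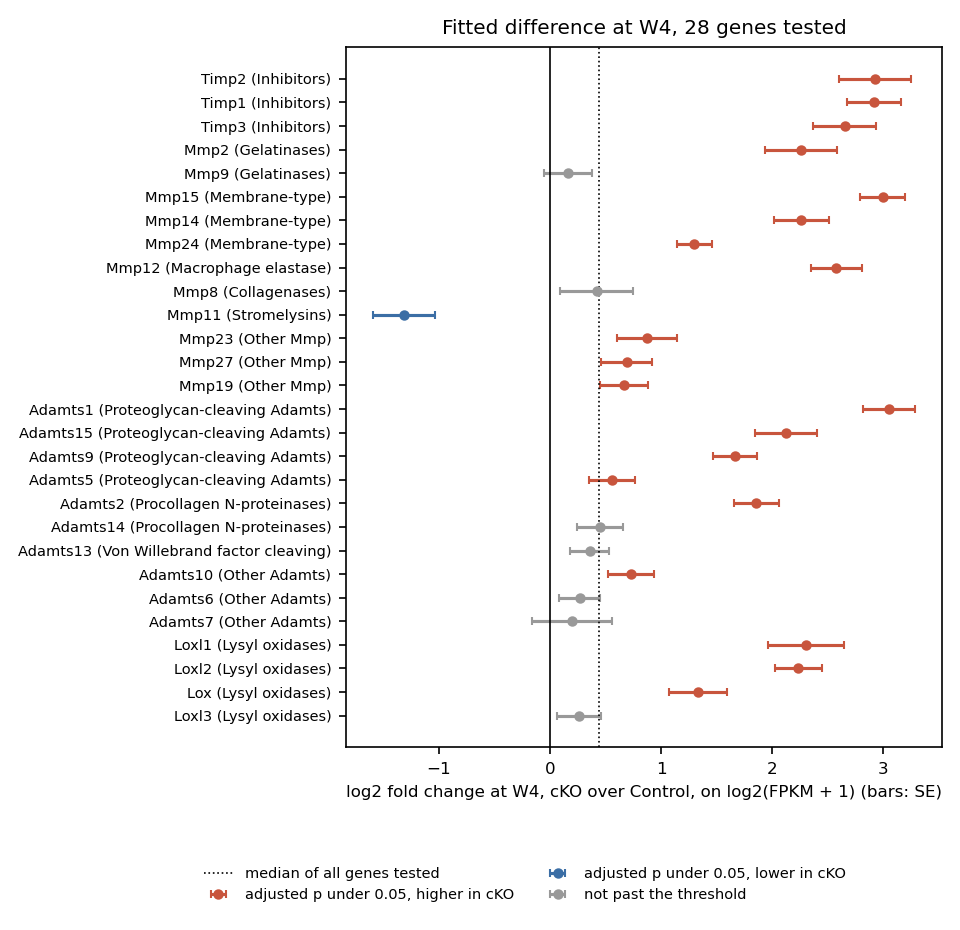
Fitted log2 fold change at W4, cKO over Control, on log2(FPKM + 1), for the 28 genes tested, grouped by role, with bars for the SE and a dotted line at the median of all genes tested (0.44). Points in red and blue passed an adjusted p of 0.05: 20 lie to the right of 0 and Mmp11 alone lies to the left.

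Besides these, the collagenase and matrilysin genes named here and some of the stromelysin genes sit together on chromosome 9, while stromelysin 3 (Mmp11) lies on chromosome 10. The cluster held 9 of the 50 genes (Mmp13, Mmp12, Mmp1b, Mmp3, Mmp10, Mmp8, Mmp27, Mmp20 and Mmp7) between positions 7272514 and 7699585 of mm10, a span of 427.1 kb, and 3 of the 9 were tested. The AP-1 factors Fos and Jun are long known to act on promoters of these proteases, so the AP-1 motif was searched. RefSeq promoters of GRCm38.p6, which run from 250 bases before to 50 after a gene's start, were found for 32 of the 50 genes, and the first listed start of each was used. The motif TGANTCA, which reads the same on both strands, was present in 6 of the 9 promoters of the cluster and in 0 of the 23 others, against 7.93% of the 27025 genes with a promoter. Shown here are the 6 that hold it, each from 100 bases before the start to 20 bases after, on the gene's strand, with the motif in capitals.
Mmp13, chr9:7272414-7272533, plus strand: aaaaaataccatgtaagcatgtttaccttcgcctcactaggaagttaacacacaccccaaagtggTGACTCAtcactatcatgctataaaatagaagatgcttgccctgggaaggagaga
Mmp3, chr9:7445722-7445841, plus strand: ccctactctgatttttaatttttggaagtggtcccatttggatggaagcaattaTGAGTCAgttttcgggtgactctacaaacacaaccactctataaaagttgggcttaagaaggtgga
Mmp10, chr9:7502242-7502361, plus strand: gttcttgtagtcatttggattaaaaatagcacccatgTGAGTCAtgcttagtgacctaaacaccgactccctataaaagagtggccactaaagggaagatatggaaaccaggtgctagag
Mmp7, chr9:7691990-7692109, plus strand: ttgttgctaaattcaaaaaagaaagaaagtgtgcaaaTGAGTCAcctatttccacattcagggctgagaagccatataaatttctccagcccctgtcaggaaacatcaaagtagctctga
Mmp1b, chr9:7388007-7388126, minus strand: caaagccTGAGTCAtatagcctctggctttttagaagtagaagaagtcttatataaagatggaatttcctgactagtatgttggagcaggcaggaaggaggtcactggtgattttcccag
Mmp20, chr9:7628131-7628250, plus strand: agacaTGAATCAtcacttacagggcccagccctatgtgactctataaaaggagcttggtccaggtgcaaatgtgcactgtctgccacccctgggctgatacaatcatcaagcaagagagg
The motif began 35 bases before the start in Mmp13, 46 in Mmp3, 63 in Mmp10 and Mmp7, 93 in Mmp1b and 95 in Mmp20. The promoters of Mmp8, Mmp12 and Mmp27 held no match in this window. Among the 20 genes called higher at W4, 12 had a promoter and 0 of these held the motif. A match is a description of the letters and is no evidence of binding.

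Expression of the genes in this cluster differed widely in level. Mmp13 (collagenase 3) was estimated at 3 and 1 reads in the W4 Control libraries and at 40 and 26 in those labelled cKO. Mmp3 (stromelysin 1) stood at 1 and 1 and 14 and 6 reads in the same order. Mmp7 (matrilysin, a secreted protease of epithelia) had 0 and 0 reads in Control and 22 and 7 in those labelled cKO, and 1 read in the other 12 libraries together. All 3 of these genes were below the filter, and in all 3 both W4 cKO libraries were above every other library. Mmp10 had at most 2 reads in any library, and Mmp1b and Mmp20 were listed at 0 although they hold the same motif. Reads were estimated from FPKM, exon length and depth and are approximate.

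Mmp12 (macrophage elastase, chr9:7344381-7369499) was one of the 3 genes of the cluster that were tested. It was listed at 0.0687 and 0 FPKM in the W4 Control libraries and at 7.4 and 3.53 in those labelled cKO. At the earlier ages its values were 0.0169 and 0.0145 at P1, 0.047 and 0 at W1 and 0.0186 and 0.0569 at W2 in Control, and 0.0156 and 0.0316 at P1, 0.303 and 0.192 at W1 and 0.0327 and 0.174 at W2 in the libraries labelled cKO. All 14 other libraries were thus at or below 0.303 FPKM, and the gene was called at W4 and at no other age (log2 fold change 2.58, SE 0.23, adjusted p = 2.3e-06). Mmp12 passed the filter through W4 cKO alone, so this call is a description of its values. The Control values rest on 6.5 and 0 estimated reads, so the fitted fold depends on the added constant and was 5.33 with 0.1 FPKM added in place of 1. Mmp27, a neighbour of Mmp8 in the cluster, stood at 0.202 and 0.339 FPKM in W4 Control and at 1.23 and 0.878 in W4 cKO livers (log2 fold change 0.69, SE 0.23, adjusted p = 0.0211). Its earlier values were 0.277 and 0.273 at P1, 0.405 and 0.401 at W1 and 0.569 and 1.56 at W2 in Control and 0.0366 and 0.111 at P1, 0.611 and 0.338 at W1 and 0.269 and 0.744 at W2 in cKO, and W2 Control was the group with the highest single library. The call was lost without W4 Control replicate 1 (0.61, adjusted p = 0.0932) and without W4 cKO replicate 1 (0.57, adjusted p = 0.119).

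Of the 4 inhibitors 3 were tested, and all 3 were higher at W4. Timp1 (chrX:20870166-20874735), a secreted inhibitor of most metalloproteinases, stood at 0.0871 and 0 FPKM in the W4 Control libraries and at 7.47 and 6.31 in those labelled cKO. Before W4 it was at 1.79 and 0.515 at P1, 0.794 and 1.41 at W1 and 0.472 and 0.481 at W2 in Control and 1.18 and 1.6 at P1, 1.98 and 2.26 at W1 and 0.579 and 0.721 at W2 in cKO. The W4 groups did not overlap, and both cKO values exceeded those of the other 14 libraries (log2 fold change 2.92, SE 0.25, adjusted p = 1.43e-06). The W4 Control values correspond to 1 and 0 reads, and with 0.1 FPKM added the fitted value was 5.67. Timp2 (chr11:118301069-118355740), an inhibitor that also takes part in the activation of Mmp2 by Mmp14, stood at 2.03 and 1.02 FPKM in W4 Control and at 23.6 and 13.4 in W4 cKO livers, which is 12.1-fold by the means (log2 fold change 2.92, SE 0.33, adjusted p = 1.18e-05). At the younger ages it was at 3.09 and 5.22 at P1, 4.16 and 5.71 at W1 and 1.64 and 1.15 at W2 in Control and 1.95 and 2.53 at P1, 4.27 and 3.64 at W1 and 5.48 and 2.71 at W2 in cKO. Timp2 was already higher at W2 (log2 fold change 1.04, SE 0.33, adjusted p = 0.0303), a call that was lost without W2 Control replicate 1 (1.19, adjusted p = 0.0647), without W2 Control replicate 2 (0.89, adjusted p = 0.146), without W2 cKO replicate 1 (0.64, adjusted p = 0.28) and after rescaling by median of ratios (0.83, adjusted p = 0.0588) or over nuclear genes (0.73, adjusted p = 0.0845).

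Timp3 (chr10:86300372-86349506), an inhibitor that binds to the matrix and also blocks Adamts enzymes, stood at 3.83 and 1.99 FPKM in W4 Control and at 32.5 and 16 in W4 cKO livers, or 8.35-fold by the means (log2 fold change 2.65, SE 0.29, adjusted p = 9.25e-06). Earlier libraries had 3.75 and 4.94 at P1, 2.08 and 2.01 at W1 and 1.55 and 1.53 at W2 in Control and 3.9 and 3.75 at P1, 3.56 and 2.83 at W1 and 2.72 and 2.02 at W2 in cKO, and both W4 cKO libraries lay above all of them. Exons of Syn3 overlap 21.3% of the Timp3 exon length, and reads of the overlap cannot be assigned without strand. Timp4 had reads in 3 libraries, with 0.334 FPKM in W2 Control replicate 1 and 0.0121 and 0.0169 FPKM in the W4 cKO libraries, and it was not tested. Replicate 1 of W4 cKO was the higher of the pair for all 3 inhibitors tested. This order held in 16 of the 20 genes called higher at W4. Its share over all genes is not given here, so the count is not read as a trait of these genes. The summed stellate cell markers (512.7 and 432.5 FPKM) and macrophage markers (619.4 and 502.1) had the same order. The endothelial sum (145.8 and 156.1) had the opposite one. The mesothelial sum (398.5 and 566.2) was mostly Krt8 (395.8 and 564.1). Msln (1.64 and 1.19) and Upk3b (0.642 and 0.447) had the order of the stellate cell markers, and Wt1 (0.367 and 0.421) the opposite one.

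At W4 the Timp sum differed between the genotypes by a larger factor than the Mmp sum, while the Mmp sum differed by more FPKM. Summed over the 4 Timp genes, W4 Control livers had 5.94 and 3.01 FPKM and W4 cKO livers 63.6 and 35.7. The 22 Mmp genes summed to 30.9 and 27.9 FPKM in W4 Control and to 117.8 and 105.3 in W4 cKO. The ratio of the Timp sum to the Mmp sum was therefore 0.192 and 0.108 in W4 Control and 0.54 and 0.339 in W4 cKO. In the 12 libraries of the earlier ages it lay between 0.0893 and 0.173. Both W4 cKO ratios were above all others, and the ratio was not tested.

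**Figure D2:**
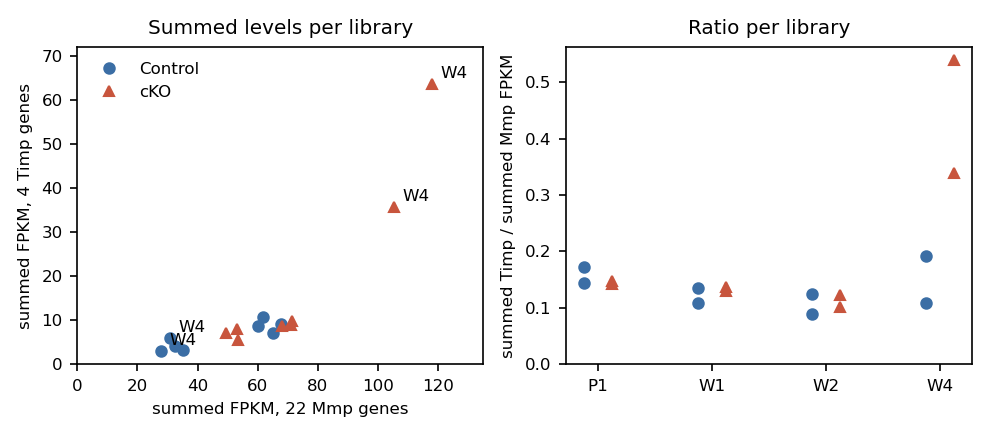
Left, summed FPKM of the 4 Timp genes against the summed FPKM of the 22 Mmp genes, 1 point for each of the 16 libraries, with W4 marked. Right, the ratio of the 2 sums by age: the W4 cKO libraries stood at 0.54 and 0.339, and the other 14 at 0.0893 to 0.192.

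Among the gelatinases, which cut type IV collagen and denatured collagen, Mmp2 rose and Mmp9 was not called. Mmp2 (chr8:92827291-92853420) stood at 0.849 and 0.884 FPKM in W4 Control and at 12.3 and 4.98 in W4 cKO livers (log2 fold change 2.26, SE 0.33, adjusted p = 8.91e-05). Its earlier values were 2.96 and 4.81 at P1, 4.53 and 6.2 at W1 and 4.01 and 3.42 at W2 in Control and 1.9 and 1.77 at P1, 5.98 and 5.8 at W1 and 8.31 and 4.76 at W2 in cKO. W4 cKO replicate 2 was therefore inside the range of the earlier ages, and the 2 W4 Control libraries were the lowest of all 16. Mmp9 stood at 0.121 and 0.158 FPKM in W4 Control and 0.315 and 0.234 in W4 cKO livers (log2 fold change 0.16, SE 0.21, adjusted p = 0.543). Before W4 it was at 5.13 and 6.3 at P1, 7.18 and 4.28 at W1 and 0.473 and 0.214 at W2 in Control and 4.17 and 3.89 at P1, 4.01 and 3.35 at W1 and 0.414 and 0.0669 at W2 in cKO, and the values of P1 and W1 lay above all of W2 and W4.

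Mmp9 and Mmp8, the neutrophil collagenase, shared this course. Mmp8 ranged from 6.09 to 11.6 FPKM at P1 and W1, and from 0 to 1.13 at W2 and W4. From P1 to W4 in Control, Mmp8 fell (log2 fold change -3.50, SE 0.33, adjusted p = 2.09e-06) and Mmp9 fell (log2 fold change -2.55, SE 0.21, adjusted p = 7.85e-07), and in cKO both fell too (log2 fold change -2.90, SE 0.33, adjusted p = 1.35e-05 for Mmp8, and log2 fold change -1.98, SE 0.21, adjusted p = 9.41e-06 for Mmp9). Neutrophils store both proteases in their granules. Beside them, all 10 neutrophil markers listed fell from P1 to W4 in Control, and their summed level was 2641 to 2769 FPKM at P1 and 3.36 to 6.54 FPKM at W4. At W4 0 of the 10 differed between the genotypes, and of these Elane was listed at 0 in both cKO libraries. The part of neutrophil content in the course of Mmp8 and Mmp9 was not tested.

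Of the membrane-type proteases, which are anchored at the cell surface, all 3 tested were higher at W4. Mmp14 (chr14:54431612-54445364), the main activator of Mmp2, stood at 5.93 and 3.74 FPKM in W4 Control and at 29.8 and 23.5 in W4 cKO livers, or 5.51-fold by the means (log2 fold change 2.26, SE 0.25, adjusted p = 1.13e-05). At the younger ages it was at 14 and 15.4 at P1, 14.4 and 17 at W1 and 7.7 and 9.15 at W2 in Control and 11.1 and 10.4 at P1, 15.6 and 12.7 at W1 and 15.5 and 8.59 at W2 in cKO. The gene was among the higher ones of the set from birth onwards, and its Control values at W2 and W4 lay below those at P1 and W1. Mmp15 (chr8:95352268-95375080), another membrane-type protease, was called at both W2 and W4. At P1 its values were 0.807 and 1.47 FPKM in Control and 1.56 and 1.2 in cKO, and it was at 3.2 and 3.46 and at 5.29 and 7.09 in the same order at W1, at 2.08 and 2.6 and at 11.2 and 9.88 at W2, and at 4.89 and 3.36 and at 37.5 and 41.5 at W4. The groups overlapped at P1 and were apart from W1 on. The log2 fold change was 0.17 at P1, 0.72 at W1 (adjusted p = 0.0635), 1.79 at W2 (SE 0.20, adjusted p = 0.000114) and 3.00 at W4 (SE 0.20, adjusted p = 3.06e-07), and Mmp15 was called at W2 and W4 under both rescalings as well. W4 cKO livers thus had 9.57 times the Control mean.

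Mmp24 (chr2:155775342-155818366), a membrane-type protease known mainly from brain, stood at 0.107 and 0.0997 FPKM in W4 Control and at 1.81 and 1.62 in W4 cKO livers (log2 fold change 1.30, SE 0.16, adjusted p = 2.36e-05). Earlier libraries had 0.0525 and 0.0754 at P1, 0.0651 and 0.161 at W1 and 0.232 and 0.0592 at W2 in Control and 0.0971 and 0.0328 at P1, 0.075 and 0.0663 at W1 and 0.017 and 0.214 at W2 in cKO. All libraries but the 2 of W4 cKO were at or under 0.232 FPKM. Mmp24 thus passed the filter through W4 cKO alone, and its call is a description of its values. Of its exon length, 13.6% overlaps another gene. The other membrane-type genes, Mmp16, Mmp17 and Mmp25, were under 1 FPKM throughout.

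**Figure D3:**
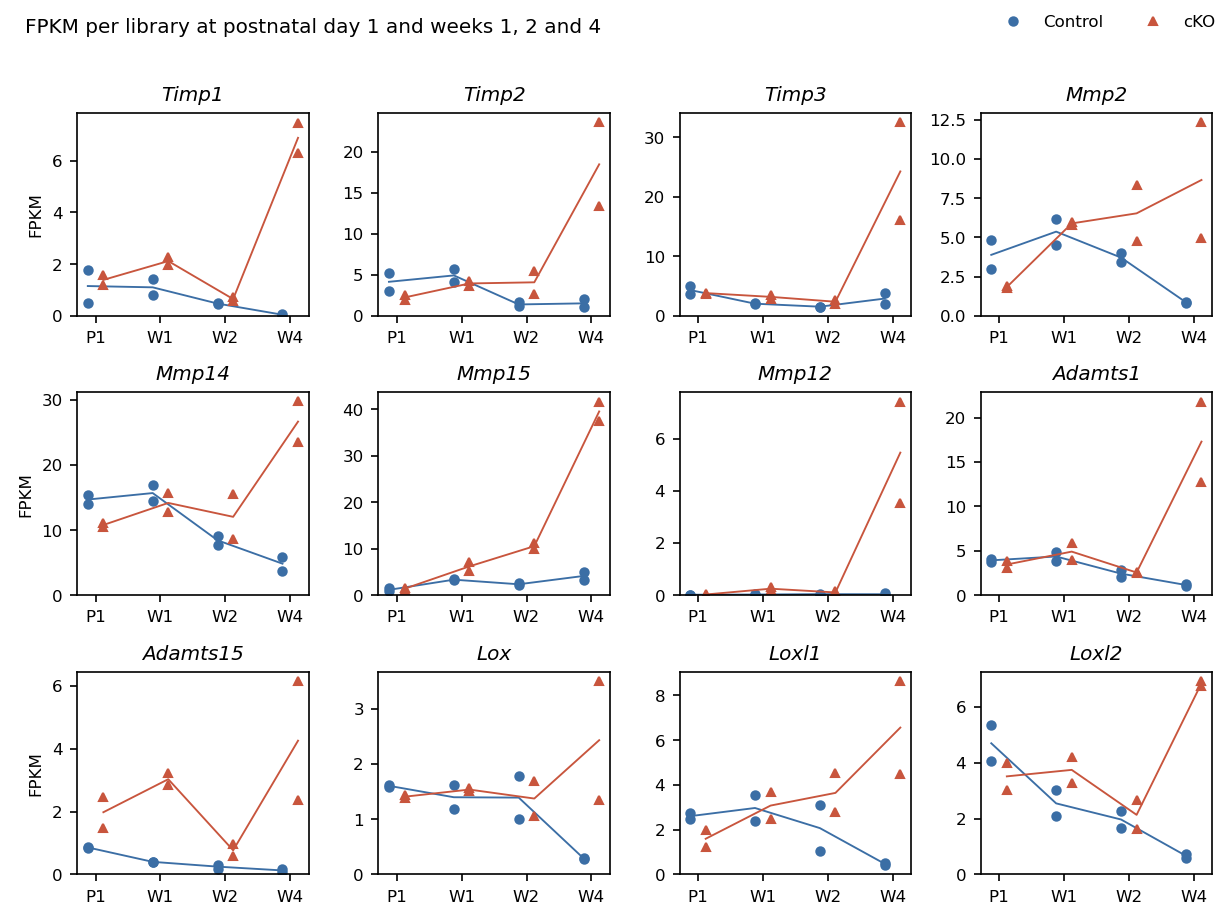
FPKM of 12 genes by age, 1 point for each library (circles Control, triangles cKO) and lines through the means of 2, with the vertical axis from 0 and scaled for each gene. At W4 both cKO libraries lay above both Control libraries in all 12, and Mmp15 was also apart at W2, with 11.2 and 9.88 FPKM against 2.08 and 2.60.

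Mmp11 (stromelysin 3) was the single gene of the 28 that was lower at W4. It stood at 3.9 and 6.16 FPKM in W4 Control and at 1.81 and 1.01 in W4 cKO livers (log2 fold change -1.32, SE 0.28, adjusted p = 0.00137). Its earlier values were 5.17 and 5.22 at P1, 4.44 and 8.19 at W1 and 4.52 and 3.49 at W2 in Control and 5.45 and 3.21 at P1, 4.26 and 4.3 at W1 and 4.15 and 4.39 at W2 in cKO, and the 2 W4 cKO libraries were the lowest of the 16. Mmp19, a secreted protease outside the main classes, stood at 13.7 and 11.3 FPKM in W4 Control and at 18.6 and 22.4 in W4 cKO livers (log2 fold change 0.67, SE 0.22, adjusted p = 0.0182). At P1 and W1 it was at 15.2 and 14.9 and at 14.5 and 17 in Control and at 12.4 and 16.9 and at 23.5 and 23.9 in cKO, and at W2 at 7.11 and 11.3 and at 26.3 and 20.5 in the same order (log2 fold change 1.28, SE 0.22, adjusted p = 0.00112 at W2). Its W4 call was lost without W4 Control replicate 2 (0.54, adjusted p = 0.117), without W4 cKO replicate 2 (0.54, adjusted p = 0.116) and after median-of-ratios rescaling (0.07, adjusted p = 0.803). Exons of Tmem198b and Gm47093 overlap 28.3% of its exon length.

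Mmp23, another member without a class of its own, stood at 0.75 and 1.6 FPKM in W4 Control and at 2.83 and 2.98 in W4 cKO livers (log2 fold change 0.87, SE 0.27, adjusted p = 0.0136). Before W4 it was at 4.26 and 2.31 at P1, 3.03 and 4.26 at W1 and 4.01 and 2.78 at W2 in Control and 4.28 and 2.76 at P1, 4.37 and 3.29 at W1 and 4.03 and 3.65 at W2 in cKO, so that the W4 cKO values were within the range of the earlier ages and the W4 Control values below it. The call was lost without W4 Control replicate 1 (0.59, adjusted p = 0.126), without W4 cKO replicate 1 (0.90, adjusted p = 0.0508), without W4 cKO replicate 2 (0.85, adjusted p = 0.0599) and after median-of-ratios rescaling (0.46, adjusted p = 0.194).

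The proteoglycan-cleaving Adamts genes cut aggrecan, versican and related proteins, and all 4 tested were higher at W4. Adamts1 (chr16:85793827-85803113) stood at 1.26 and 1.03 FPKM in W4 Control and at 21.8 and 12.8 in W4 cKO livers, or 15.1-fold by the means (log2 fold change 3.05, SE 0.23, adjusted p = 7.4e-07). At the younger ages it was at 4.06 and 3.78 at P1, 3.81 and 4.9 at W1 and 2.06 and 2.78 at W2 in Control and 3.08 and 3.82 at P1, 3.92 and 5.89 at W1 and 2.65 and 2.45 at W2 in cKO, and the W4 cKO libraries lay above all of them. Adamts15 stood at 0.169 and 0.0845 FPKM in W4 Control and at 6.15 and 2.37 in W4 cKO livers (log2 fold change 2.12, SE 0.28, adjusted p = 4.52e-05). Earlier libraries had 0.852 and 0.866 at P1, 0.39 and 0.41 at W1 and 0.309 and 0.186 at W2 in Control and 2.47 and 1.49 at P1, 2.83 and 3.23 at W1 and 0.579 and 0.955 at W2 in cKO, and the cKO libraries exceeded the Control libraries at every age. It was the only gene of the 28 called higher at W1 (log2 fold change 1.52, SE 0.28, adjusted p = 0.00944), where 3.24% of all genes were. That call was lost with a term for sex (1.51, adjusted p = 0.415), without W1 Control replicate 1 (1.51, adjusted p = 0.0716), without W1 Control replicate 2 (1.53, adjusted p = 0.0624) and without W1 cKO replicate 2 (1.45, adjusted p = 0.0706).

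Adamts9 (chr6:92772699-92943492) stood at 0.403 and 0.375 FPKM in W4 Control and at 4.24 and 2.7 in W4 cKO livers (log2 fold change 1.66, SE 0.20, adjusted p = 1.81e-05). Its earlier values were 1.55 and 1.98 at P1, 1.5 and 1.71 at W1 and 1.7 and 1.67 at W2 in Control and 1.9 and 1.18 at P1, 1.33 and 1.89 at W1 and 1.61 and 1.47 at W2 in cKO. Here the W4 libraries were the 2 lowest in Control and the 2 highest in cKO. Adamts5, the other main aggrecanase of cartilage, stood at 0.351 and 0.451 FPKM in W4 Control and at 1.53 and 0.689 in W4 cKO livers (log2 fold change 0.56, SE 0.21, adjusted p = 0.0327), with earlier values of 0.596 and 0.417 at P1, 0.875 and 1.29 at W1 and 1.33 and 0.976 at W2 in Control and 0.353 and 0.672 at P1, 0.902 and 1.13 at W1 and 0.966 and 1.14 at W2 in cKO. Its call was lost without W4 Control replicate 1 (0.51, adjusted p = 0.117), without W4 Control replicate 2 (0.61, adjusted p = 0.0729), without W4 cKO replicate 1 (0.27, adjusted p = 0.31) and after median-of-ratios rescaling (0.30, adjusted p = 0.248).

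Of the procollagen N-proteinases, which trim the amino end of fibrillar procollagens, Adamts2 was higher at W4 and Adamts14 was not called. Adamts2 (chr11:50602084-50807573) stood at 0.963 and 0.67 FPKM in W4 Control and at 7.45 and 4.1 in W4 cKO livers (log2 fold change 1.86, SE 0.21, adjusted p = 1.14e-05). Before W4 it was at 1.8 and 1.93 at P1, 2.15 and 2.85 at W1 and 2.17 and 1.78 at W2 in Control and 1.45 and 1.45 at P1, 2.67 and 2.64 at W1 and 3.29 and 3.21 at W2 in cKO, so that both W4 cKO libraries were above the other 14. Adamts14 ranged from 0.608 to 3.12 FPKM over the 16 libraries, and Adamts13, which cuts von Willebrand factor and is made by stellate cells in mouse liver, from 0.858 to 3.08. Their log2 fold changes at W4 were 0.45 and 0.36 (adjusted p = 0.0776 and 0.102). Adamts10, which is linked to fibrillin microfibrils, stood at 5.26 and 7.28 FPKM in W4 Control and at 11.3 and 10.6 in W4 cKO livers (log2 fold change 0.73, SE 0.21, adjusted p = 0.00946). At the younger ages it was at 7.35 and 10.0 at P1, 16 and 19 at W1 and 30.6 and 23.2 at W2 in Control and 12.7 and 9.69 at P1, 15.1 and 15.2 at W1 and 17.7 and 21.9 at W2 in cKO, with the highest of all in W2 Control. That W4 call was lost without W4 Control replicate 1 (0.52, adjusted p = 0.0861), without W4 cKO replicate 1 (0.68, adjusted p = 0.0531) and after median-of-ratios rescaling (0.16, adjusted p = 0.584).

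Adamts6 and Adamts7 differed at ages other than W4. Adamts6 stood at 3.93 and 3.19 FPKM in W1 Control and at 1.08 and 1.03 in W1 cKO livers (log2 fold change -1.14, SE 0.19, adjusted p = 0.00512). It was the single gene of the 28 called lower at W1, where 1.59% of all genes were. Its values at P1 were 1.46 and 1.44 in Control and 1.47 and 0.864 in cKO, at W2 1.4 and 0.983 and 1.29 and 0.957, and at W4 0.22 and 0.465 and 0.771 and 0.459, and W1 Control was above all other groups. The call was lost with a term for sex (-1.13, adjusted p = 0.368), with W1 fitted alone (-1.14, adjusted p = 0.0638) and without W1 Control replicate 1 (-1.02, adjusted p = 0.0601). Adamts7, a protease that cuts the cartilage matrix protein COMP, stood at 8 and 12.1 FPKM in W2 Control and at 32.9 and 40.5 in W2 cKO livers (log2 fold change 1.79, SE 0.36, adjusted p = 0.00324). At P1 it was at 2.06 and 3.12 in Control and 4.44 and 5.21 in cKO, at W1 at 10.5 and 12.5 and 26.2 and 15.3, and at W4 at 2.44 and 6.56 and 3.63 and 6.4. The cKO values exceeded the Control values at P1, W1 and W2 and overlapped with them at W4. The joint test of its effect over the 4 ages gave an adjusted p of 0.0914.

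At W2, 24.6% of all genes tested were called higher and 4.49% lower, against 14.3% and 0.0% of the 28. The W2 Control libraries had the highest mitochondrial share of all groups. The median shift of all genes at W2 was 0.22, and it was -0.01 after rescaling by median of ratios and -0.09 after rescaling over nuclear genes. Of all calls, 84.6% were higher as deposited, 51.2% after median-of-ratios rescaling and 41.6% after nuclear scaling. Among the 28, Mmp15, Mmp19 and Adamts7 were then still higher, and Loxl3, Adamts10 and Adamts14 were called lower, under both rescalings. The part of mitochondrial transcripts in the W2 values was not tested.

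Of the lysyl oxidases, 3 of 4 tested were higher at W4. Lox, the founding member, stood at 0.275 and 0.304 FPKM in W4 Control and at 3.5 and 1.35 in W4 cKO livers (log2 fold change 1.33, SE 0.26, adjusted p = 0.000836). Earlier libraries had 1.62 and 1.58 at P1, 1.18 and 1.61 at W1 and 1.77 and 1.01 at W2 in Control and 1.44 and 1.38 at P1, 1.5 and 1.57 at W1 and 1.68 and 1.06 at W2 in cKO, so W4 cKO replicate 2 was within the range of the earlier ages and W4 Control was the lowest group. Loxl1 (chr9:58287738-58313186), which is needed for elastic fibres, stood at 0.513 and 0.434 FPKM in W4 Control and at 8.65 and 4.48 in W4 cKO livers (log2 fold change 2.30, SE 0.34, adjusted p = 0.000109). Its earlier values were 2.47 and 2.74 at P1, 2.4 and 3.54 at W1 and 3.11 and 1.03 at W2 in Control and 1.97 and 1.22 at P1, 3.67 and 2.49 at W1 and 4.52 and 2.77 at W2 in cKO. Loxl2 (chr14:69609068-69695834), known for cross-links of type IV and fibrillar collagen, stood at 0.593 and 0.741 FPKM in W4 Control and at 6.74 and 6.93 in W4 cKO livers, or 10.3-fold by the means (log2 fold change 2.23, SE 0.21, adjusted p = 3.38e-06). Before W4 it was at 4.05 and 5.33 at P1, 3.01 and 2.08 at W1 and 1.66 and 2.27 at W2 in Control and 3.98 and 3.03 at P1, 4.22 and 3.26 at W1 and 2.65 and 1.61 at W2 in cKO, and the W4 cKO libraries were close to each other and above all 14 others. Loxl3 stood at 0.825 and 0.856 FPKM in W4 Control and at 1.33 and 1.09 in W4 cKO livers (log2 fold change 0.26, SE 0.20, adjusted p = 0.269), with earlier values of 2.39 and 1.95 at P1, 1.71 and 2.03 at W1 and 2.62 and 1.99 at W2 in Control and 3.13 and 1.69 at P1, 2.25 and 2.21 at W1 and 1.32 and 1.66 at W2 in cKO.

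Genes below the filter also differed at W4. In 11 of the 22, both W4 cKO libraries were above both Control libraries with at least 3 reads each, and in 6 they were above all 14 others. Over the 38373 genes below the filter these shares were 4.54% and 1.39%. Over the 14683 of them with a read in any library, which include 20 of the 22, they were 11.9% and 3.63%. Neither background was limited to protein-coding genes, while the 22 are all protein-coding. The shares over protein-coding genes alone are not given here. The 6 genes above all 14 others were Mmp13, Mmp3, Mmp7, Adamts12, Adamts4 and Loxl4. Adamts12 had 14 and 10.2 estimated reads in W4 Control and 276.2 and 104.4 in W4 cKO livers. Adamts4, an aggrecanase, had 3.3 and 0 reads in Control and 71.2 and 54.8 in cKO. Loxl4, the remaining lysyl oxidase, had 16.9 and 11.3 and 86.8 and 41.7 in the same order. When no filter was applied, these 6 genes and no other of the 22 were called at W4 by limma. Their log2 fold changes on FPKM + 1 were 0.44 for Mmp3, 0.77 for Loxl4, 0.88 for Mmp13, 0.97 for Mmp7, 0.98 for Adamts4 and 1.06 for Adamts12. The adjusted p of the 6 ran from 1.12e-05 to 0.000323. These calls rest on the same values as the order of the libraries and are no separate support. The share of all genes below the filter called in this fit is not given here.

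**Figure D4:**
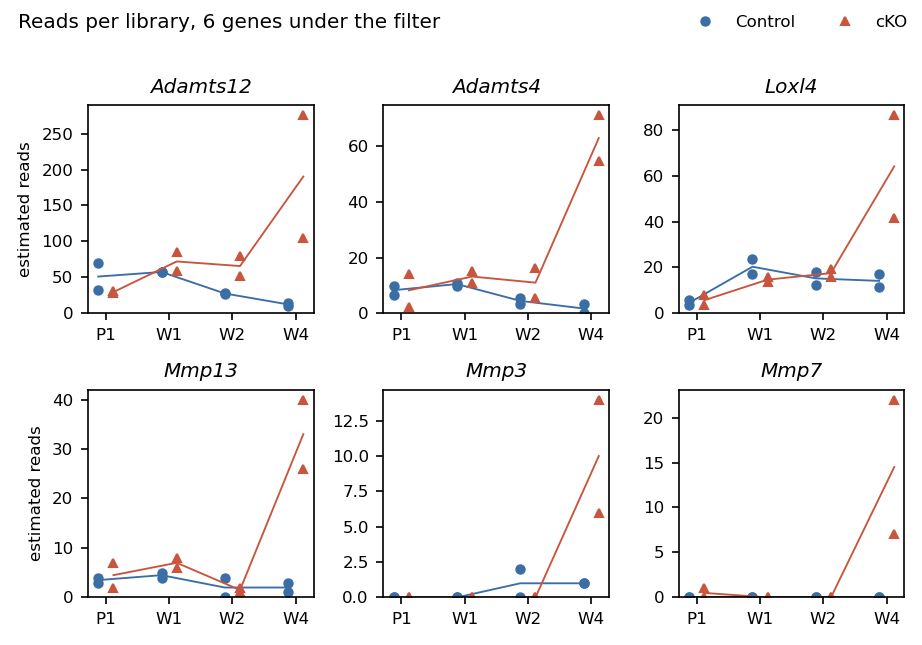
Estimated reads by age for 6 genes under the filter, 1 point for each library (circles Control, triangles cKO) and lines through the means of 2, with the vertical axis from 0 and scaled for each gene. In all 6 the W4 cKO libraries lay above the 14 others, with 6 and 14 reads for Mmp3 at the low end.

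The W4 Control livers were the low point of many courses. In 19 of the 28 genes (67.9%) W4 Control had the lowest mean of the 8 groups, against 25.5% of all genes tested. Both W4 cKO libraries were above both Control libraries in 25 of the 28 (59.5% of all genes) and below in 1 (18.5% of all genes), and they were above all 14 others in 11 (25.6% of all genes). From P1 to W4 in Control, 1 of the 28 rose and 17 fell, against 12.4% and 42.1% of all genes, and the median was -0.75 against -0.38. Mmp15 was the gene that rose (log2 fold change 1.26, SE 0.20, adjusted p = 0.000194), and besides Mmp8 and Mmp9 the genes that fell included Loxl2 (log2 fold change -1.76, SE 0.21, adjusted p = 1.86e-05), Mmp14 (log2 fold change -1.45, SE 0.25, adjusted p = 0.000361) and Mmp2 (log2 fold change -1.36, SE 0.33, adjusted p = 0.00358). After median-of-ratios rescaling 1 of the 28 rose and 11 fell, where 3727 of the 14913 genes tested rose and 3903 fell. Higher calls were then 48.8% of all calls, against 22.7% as deposited. The median of all genes was then 0.00. Without single libraries the count called ran from 14 to 18, and the calls for Mmp23, Timp1, Timp2, Adamts2, Adamts14 and Adamts15 were each lost without at least 1 of the 4 libraries of P1 and W4 Control.

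In the livers labelled cKO, 15 of the 28 rose from P1 to W4 and 4 fell, against 31.7% and 25.4% of all genes. Both P1 cKO livers were female and both W4 cKO livers male, so age and sex cannot be told apart within cKO. A term for sex rests on the 1 male and 1 female liver of P1 Control. With it, 6 of the 19 calls were lost (Mmp11, Mmp27, Timp1, Loxl1, Loxl3 and Adamts15, with adjusted p from 0.0589 to 0.283). Mmp15 was among the genes that rose (log2 fold change 4.09, SE 0.20, adjusted p = 1.47e-08), as were Mmp12 (log2 fold change 2.59, SE 0.23, adjusted p = 2e-06), Timp2 (log2 fold change 2.54, SE 0.33, adjusted p = 3.9e-05) and Timp3 (log2 fold change 2.31, SE 0.29, adjusted p = 2.98e-05). Those that fell were Mmp8, Mmp9, Mmp11 (log2 fold change -1.13, SE 0.28, adjusted p = 0.00406) and Loxl3 (log2 fold change -0.59, SE 0.20, adjusted p = 0.0203). Without P1 cKO replicate 1 the calls for Mmp11 (-0.82, adjusted p = 0.0531) and Loxl3 (-0.28, adjusted p = 0.24) were lost, and that for Loxl3 was lost without W4 cKO replicate 2 (-0.51, adjusted p = 0.103). The change from P1 to W4 differed between the genotypes in 17 of the 28, with 16 higher and 1 lower in cKO, against 38.0% and 8.79% of all genes. One of these was Timp2, which fell in Control and rose in cKO (log2 fold change 3.57, SE 0.46, adjusted p = 0.0001 for the difference). Of all calls for this difference, 81.2% were higher as deposited and 51.1% after median-of-ratios rescaling, where the median of all genes went from 0.48 to 0.01. The 28 then gave 15 higher and 1 lower, where 2886 of the 14913 genes tested were called higher and 2765 lower. Mmp11 was the lower gene (log2 fold change -1.07, SE 0.39, adjusted p = 0.0407), and its call was lost without any of 7 single libraries, with adjusted p from 0.0514 to 0.159.

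**Figure D5:**
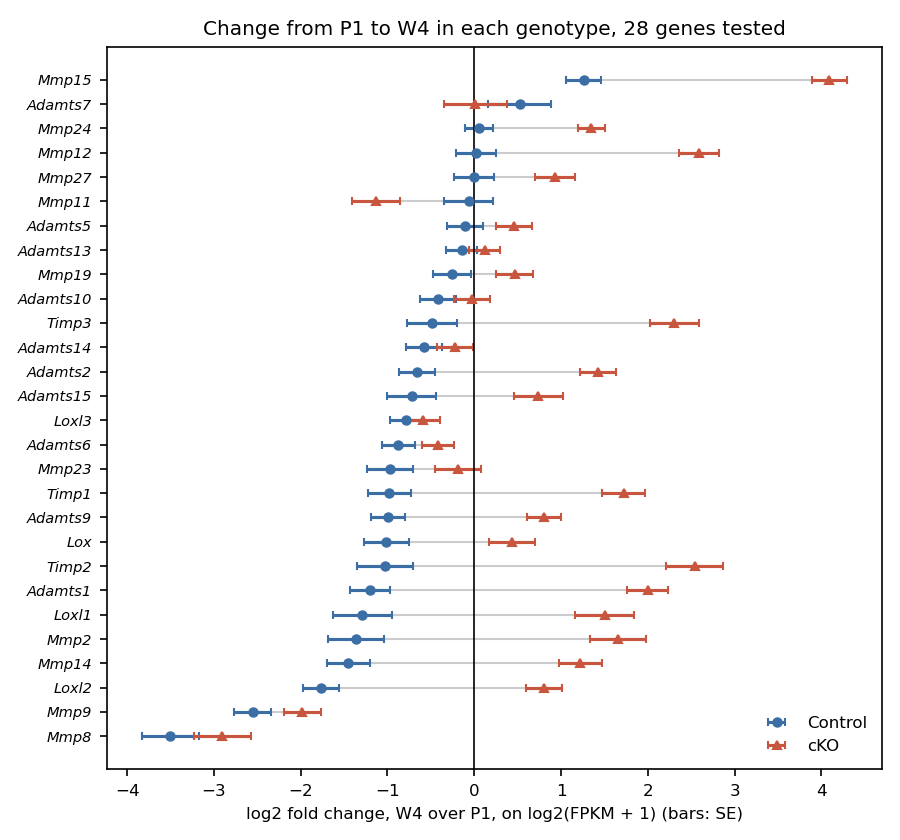
Fitted log2 fold change from P1 to W4, on log2(FPKM + 1), in Control (circles) and cKO (triangles) for the 28 genes tested, with bars for the SE and a grey line joining the 2 values of a gene. Mmp15 at the top rose in both (1.26 and 4.09), Mmp8 at the bottom fell in both (-3.50 and -2.90), and Timp2 fell in Control and rose in cKO (-1.03 and 2.54).

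Averaged over the 4 ages, 16 of the 28 were higher in cKO and 2 lower, against 40.6% and 9.81% of all genes. Those that were higher included Mmp15 (log2 fold change 1.42, SE 0.10, adjusted p = 8.3e-07), Adamts15 (log2 fold change 1.20, SE 0.14, adjusted p = 3.04e-05) and Timp1 (log2 fold change 0.97, SE 0.12, adjusted p = 5.74e-05), and the lower ones Mmp11 (log2 fold change -0.48, SE 0.14, adjusted p = 0.0128) and Adamts6 (log2 fold change -0.28, SE 0.09, adjusted p = 0.0271). After median-of-ratios rescaling the counts were 13 and 3, where 3120 of the 14913 genes tested were called higher and 3069 lower. The median of all genes then went from 0.19 to 0.00, and 50.4% of all calls were higher against 80.5% as deposited. The call for Adamts6 was lost without any of 7 single libraries, with adjusted p from 0.0503 to 0.066. With a term for sex, 9 of the 18 limma calls for the mean were lost. Both lower genes were among them, Mmp11 (-0.48, adjusted p = 0.117) and Adamts6 (-0.27, adjusted p = 0.185). The effect depended on age in 20 of the 28 by the joint test, against 49.6% of all genes. At P1, 0 of the 28 were called by limma and 2 had an unadjusted p under 0.05 (11.1% of all genes had one), where 0.0738% of all genes were called higher and 0.0939% lower. Of the calls at P1, 44.0% of 25 were higher as deposited and 76.9% of 39 after nuclear scaling. Those at W1 were higher in 67.1% as deposited, 51.8% after median-of-ratios rescaling and 79.7% after nuclear scaling.

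The W4 counts depend in part on the scaling. After median-of-ratios rescaling, the median of all genes at W4 went from 0.44 to 0.01 and the share of higher calls from 79.1% to 51.4%. The 28 then gave 15 higher and 1 lower, where 3894 of the 14913 genes tested were called higher and 3683 lower. The median of the 28 was then 1.04. Without single libraries the count called at W4 ran from 17 to 22. The 5 genes no longer called after the rescaling were Mmp19, Mmp23, Mmp27, Adamts5 and Adamts10, whose log2 fold changes as deposited were the lowest of the 20.

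Substrates and regulators of these proteases were read against all genes tested, of which 46.9% were called higher and 12.4% lower at W4 and 24.6% higher at W2. Of the matrix substrates listed, 20 of 20 tested were higher at W4 (median log2 fold change 2.54) and 7 at W2. The smallest adjusted p belonged to basement membrane genes. Col4a1 stood at 6.76 and 5.29 FPKM in W4 Control and at 74.4 and 65.8 in W4 cKO livers, Col4a2 at 5.36 and 4.82 and at 48.2 and 39.9, Hspg2 (perlecan) at 1.72 and 1.62 and at 10.8 and 9.98, and Nid1 (nidogen) at 2.15 and 1.52 and at 25.5 and 22 in the same order. Of the plasminogen system and other regulators, 9 of 16 were higher, 1 was lower and 6 were not called at W4, with 6 higher at W2, so that their W4 share was near that of all genes. Plat, the tissue plasminogen activator, stood at 0.038 and 0.0885 FPKM in W4 Control and at 36.3 and 35.8 in W4 cKO livers (log2 fold change 5.13, SE 0.14, adjusted p = 1.19e-09). Plaur, the urokinase receptor, went from 0.383 and 0.285 to 13 and 8.55, Pcolce, an enhancer of procollagen C-proteinase, from 2.96 and 3.56 to 35 and 37.6, and Cd44, a hyaluronan receptor that can hold proteases at the cell surface, from 0.685 and 1.11 to 27.2 and 18.5. Bmp1, the procollagen C-proteinase itself, was the lower one, at 30.5 and 32 FPKM in Control and 18.7 and 19.9 in cKO. Of the 18 TGF-beta signalling genes listed, 17 were found by symbol and 14 were tested. All 14 were higher at W4 (median 1.38) and 1 at W2. Tgfb1 stood at 1.97 and 2.2 FPKM in W4 Control and at 10.7 and 10.0 in W4 cKO livers. In the same order the receptor Tgfbr2 stood at 1.65 and 1.12 and 14.5 and 10.8. The inhibitor Smad7 was at 1.74 and 2.11 and 10.4 and 8.14, and the target Tgfbi at 6.6 and 4.22 and 61.1 and 41.7.

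Markers of the cells that can make these proteins were set against the same shares at W4. Of the stellate cell and fibroblast markers 14 of 14 were higher, and their summed level was 110.3 to 117.1 FPKM in W4 Control and 432.5 to 512.7 in W4 cKO. Macrophage and monocyte markers were higher in 14 of 14, with sums of 95.2 to 131.3 and 502.1 to 619.4. Endothelial markers were higher in 8 of 9 (52.8 to 54.1 and 145.8 to 156.1), and cholangiocyte markers in 6 of 6 tested of 8 listed (25.5 to 27.3 and 242.3 to 345.0), with Cftr at 0 in both Control libraries. Mesothelial markers were higher in 2 of 3 tested, megakaryocyte markers in 1 of 5, lymphocyte markers in 2 of 7, and erythroid markers were lower in 3 of 8, and the counts for megakaryocyte and lymphocyte markers lie below the 46.9% of all genes called higher. Hepatocyte markers were lower in 4 of 7, and their sum was 56940 to 64230 FPKM in Control and 28380 to 29370 in cKO. Some lists share genes. Spp1, at 195.3 and 126.4 FPKM in W4 cKO, is in both the macrophage and the cholangiocyte counts and sums. Col1a1, Dcn and Lum are among both the matrix substrates and the stellate cell markers. The part of the cell types listed in the values of the proteases, inhibitors and lysyl oxidases was not tested.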

How the data were processed

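Poly(A) RNA of livers from 4 ages and both genotypes was sequenced with a kit that does not mark strand, 2 libraries for each of 8 groups. The authors aligned reads to mm10 with HISAT2 2.1.0 and computed differential expression with DESeq2, which was not used here. The values are the FPKM per gene deposited by the authors; no source used here names the counting tool or the annotation. FPKM rises in steps of 1 read, and depth (10.8 to 15.5 M reads) and reads were estimated from these steps with GENCODE M21 exon lengths; 62.7 to 70.2% of low values were within 0.05 of a whole read. Overlapping genes may share reads.

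Genes that reached 1 FPKM in 2 libraries or more (14913) were fitted as log2(FPKM + 1) with limma 3.58.1 in R 4.3.3, with an intensity trend, 1 coefficient per group and Benjamini-Hochberg adjustment over all genes, and the fit was tested on simulated data. Contrasts were cKO minus Control at each age and over the mean of 4 ages, the joint test of dependence on age, W4 minus P1 in each genotype, and the difference of the latter. Named with all values were the genes called at an age or for the mean, the Timp genes, Mmp2, Mmp9, Mmp14 and the lysyl oxidases; of each list, the 4 genes with the smallest adjusted p at W4. Groups come from the labels. The genes, roles, lists and cell type markers were chosen with earlier results of these data known. Lists were 22 matrix substrates, 20 plasminogen system and other regulators and 18 TGF-beta signalling genes. Alternatives were no filter, 0.1 FPKM added, median-of-ratios and nuclear scaling, a replicate block, each age alone, a term for sex, the study's threshold, and leaving out each library. Tables were made in Python 3.11.15.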

Additional observations from a re-analysis of the deposited data

Results flagged for a closer look

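For 20 of the 28 genes tested, the difference between cKO and Control differed between ages by the joint limma test over the 4 ages, against 49.6% of all genes tested. The p-values given here are Benjamini-Hochberg adjusted. Among the inhibitors they were 0.000228 for Timp1, 0.000372 for Timp2 and 0.000874 for Timp3, each with W4 fold changes of 2.65 to 2.92 on the log2 scale and smaller values at the other ages. Of the metalloproteinases, Mmp15 had 8.36e-05, Mmp12 0.00023, Mmp14 0.000439, Mmp24 0.00104 and Mmp2 0.00171. In all 5, both W4 cKO libraries were above both Control libraries. Mmp12 and Mmp24 passed the filter through W4 cKO alone, so their adjusted p values are descriptions. For Mmp19 (0.0207), Mmp11 (0.0446) and Mmp27 (0.0474) the adjusted p was nearer to the threshold. Mmp11 was lower at W4, at 1.81 and 1.01 against 3.90 and 6.16 FPKM. Mmp19 had its largest difference at W2, with a log2 fold change of 1.28.

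In the Adamts family the adjusted p was 6.49e-05 for Adamts1, 0.000703 for Adamts2, 0.000731 for Adamts9, 0.00511 for Adamts6, 0.0136 for Adamts15 and 0.0222 for Adamts10. Adamts6 had its difference at W1, where it was lower (-1.14), and Adamts10 had values of 0.33, -0.19, -0.42 and 0.73 from P1 to W4. Among the lysyl oxidases it was 0.000217 for Loxl2, 0.00295 for Loxl1 and 0.0176 for Lox. At W1 sex and genotype coincide, and the part of sex in the age dependence was not tested gene by gene. With a term for sex 16 of the 28 were called, and the share of all genes called with it is not given here.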

How the results depend on the processing

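No log2 fold change of the members that was called changed sign under any alternative, while the median of all genes at W2 went from 0.22 to -0.01 and -0.09 under the rescalings. At W1 the 2 calls fell to 1 with each age fitted alone and to 0 with a term for sex, since sex and genotype coincide there, and ran from 0 to 2 without single libraries. At W2 the 4 calls fell to 0 with each age fitted alone, which has fewer libraries behind its spread, and ran from 3 to 5 without single libraries. For the mean over ages, 18 calls became 10 with a term for sex and 2 at the study's threshold of an unadjusted p under 0.05 and a log2 fold change over 1. The cause was not tested. With the term for sex 6 of the 19 calls from P1 to W4 in cKO and 4 of the 18 in Control were lost. At the study's threshold the 18 calls from P1 to W4 in Control became 10. With no filter 26 of the 50 were called at W4, since more genes were tested, and with 0.1 FPKM added 23 of 28. The counts in this paragraph are given without the share of all genes called under the same setting and are not read against it. Replicate numbers do not pair the mice: over 28 pairs of groups the deviations of same-numbered libraries correlated between -0.249 and 0.345, with 3 pairs over 0.1. With the replicate block, calls were 0 at P1, 2 at W1, 4 at W2, 21 at W4, 19 for the mean, 18 for dependence on age, 18 and 19 from P1 to W4 in Control and cKO, and 16 for their difference. At 2 kb of exon, values under about 0.05 FPKM rest on 1 or 2 reads (more in longer genes), and with 2 mice per group an absence of a call does not show equal levels.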
